A study of Mus musculus with 16 samples.

Results

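The Cyp2c family of cytochrome P450 enzymes was examined in the livers of 16 female mice. The family was taken as 10 listed genes, Cyp2c29, Cyp2c37, Cyp2c38, Cyp2c39, Cyp2c40, Cyp2c50, Cyp2c54, Cyp2c55, Cyp2c69 and Cyp2c70, matched by symbol, and all 10 had a row among the 15544 genes of the liver table. All 10 also passed the filter on low values, which asked for at least 1 in 4 of the libraries and kept 12704 genes. The table held 4 further rows whose symbol begins with Cyp2c: Cyp2c23, Cyp2c67, Cyp2c68 and the pseudogene Cyp2c52-ps.

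All mice were 27 weeks old and carried Esr1fl/fl, a floxed gene for oestrogen receptor alpha, on a mixed CD-1;129P2 background. Control mice had no Cre recombinase. Mutant mice, Esr1Nkx2-1Cre, had in addition a Cre under Nkx2-1, so that cells in a part of the hypothalamus lost the receptor, and the liver was not the target. Either genotype ate chow throughout or switched at 10 weeks of age to a high-fat diet (HFD) that lasted 17 weeks, which gave 4 groups of 4 libraries each. Because the deletion is in the brain, liver Esr1 cannot check the genotype labels. The gene with the smallest p in the genotype comparison, Rps7, which was chosen after its values were seen, was between 142.6 and 209.9 in the 8 mutant libraries and between 15.5 and 34.3 in the 8 control libraries, so every library lay on the side of its label, in a gene picked for that difference. The 8 hepatocyte markers, which include albumin, were abundant in all libraries, with a mean log2(value + 1) of 12.6 to 13.1.

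Cyp2c enzymes are haem proteins of the endoplasmic reticulum that take electrons from P450 reductase (Por) and insert oxygen into fatty acids, retinoids, steroids, bile acids and drugs. Several convert arachidonic acid to epoxides or hydroxylated products that act as local lipid signals. In mouse liver the genes are expressed mainly in hepatocytes around the central vein, many respond to the drug-sensing receptors CAR and PXR, and several differ between the sexes under the control of growth hormone. The study looked for circulating factors that act on bone in these mutants, and liver was profiled as a possible source.

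The 10 members lie in one cluster on mouse chromosome 19 (GRCm38), from position 39007019, the start of Cyp2c55, to 40187333, the end of Cyp2c70. Every one of the 14 protein-coding genes annotated by GENCODE inside this span is a Cyp2c gene. The cluster starts with Cyp2c55 and continues with Cyp2c29, Cyp2c38 and Cyp2c39, then Cyp2c67, Cyp2c68, Cyp2c40 and Cyp2c69, then Cyp2c37, Cyp2c54 and Cyp2c50, and ends with Cyp2c70. The protein-coding Cyp2c65 and Cyp2c66 lie between Cyp2c55 and Cyp2c29. Several neighbours are close copies, whereas Cyp2c50 and Cyp2c70, at the end of the cluster, shared 68.8% of coding bases. The coding sequences of Cyp2c40 (39767071 to 39812814) and Cyp2c69 (39842814 to 39886799), which lie next to each other on the minus strand, were identical at 97.9% of 1476 aligned bases, the highest value among the 45 pairs of members, whose median was 77.5%. Cyp2c67 (39608842 to 39649051), also on the minus strand, was identical to each of them at 97.7%. Cyp2c68 (39688834 to 39741054), on the same strand and outside the listed members, was the closest copy of Cyp2c40, at 98.1%. It shared 96.5% with Cyp2c69. Cyp2c37 (39992424 to 40012243) and Cyp2c50 (40089688 to 40113950), on the plus strand, shared 96.1%, and Cyp2c54 (40037940 to 40073827), on the minus strand, shared 95.2% with Cyp2c50. Cyp2c38 (39389556 to 39463075) and Cyp2c39 (39510862 to 39568529) shared 94.2%, and Cyp2c29 (39269405 to 39330713) shared 89.5% with Cyp2c39.

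This likeness limits what the values mean. Of all words of 31 bases in the annotated transcripts of Cyp2c40, 72.6% also occurred in a transcript of another gene, mostly Cyp2c69 and Cyp2c67. The share was 64.9% for Cyp2c69, 47.4% for Cyp2c37, 42.3% for Cyp2c54, 29.2% for Cyp2c50, 26.9% for Cyp2c39, 16.6% for Cyp2c38 and 10.5% for Cyp2c29. It was 3.41% for Cyp2c55 and 0% for Cyp2c70. Reads from shared stretches were divided among these genes by estimation, so the level of a single copy is less certain than the sum over its copies, and sums are given below beside the single values.

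The bases just upstream of the start sites are shown for 4 genes, because Cyp2c40 and Cyp2c69 varied together in these livers, whereas Cyp2c67, their close copy, and Cyp2c50 did not vary with them. The sequences are from RefSeq on GRCm38.p6, written 5′ to 3′ on the strand of the gene, and only bases before the annotated gene are printed. Capitals mark the letters CAAAGTCC, which were searched on both strands as a motif of the kind bound by the liver factor HNF4A. Cyp2c40 is at chr19:39812815-39813064 and Cyp2c69 at chr19:39886800-39887019, both on the minus strand, Cyp2c67 is at chr19:39649052-39649292 on the minus strand, and Cyp2c50 is at chr19:40089429-40089678 on the plus strand.
Cyp2c40: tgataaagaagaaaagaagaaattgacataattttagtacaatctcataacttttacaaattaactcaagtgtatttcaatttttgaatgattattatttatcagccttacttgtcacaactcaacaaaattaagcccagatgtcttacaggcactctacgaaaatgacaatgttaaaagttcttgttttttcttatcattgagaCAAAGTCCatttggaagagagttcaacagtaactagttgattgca
Cyp2c69: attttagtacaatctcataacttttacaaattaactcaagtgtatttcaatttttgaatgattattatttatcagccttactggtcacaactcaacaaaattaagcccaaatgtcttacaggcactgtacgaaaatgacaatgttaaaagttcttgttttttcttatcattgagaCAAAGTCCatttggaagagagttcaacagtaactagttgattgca
Cyp2c67: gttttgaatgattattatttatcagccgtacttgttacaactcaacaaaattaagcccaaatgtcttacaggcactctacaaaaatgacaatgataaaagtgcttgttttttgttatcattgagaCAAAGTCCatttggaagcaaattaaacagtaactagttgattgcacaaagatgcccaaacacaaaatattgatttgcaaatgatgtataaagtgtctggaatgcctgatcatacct
Cyp2c50: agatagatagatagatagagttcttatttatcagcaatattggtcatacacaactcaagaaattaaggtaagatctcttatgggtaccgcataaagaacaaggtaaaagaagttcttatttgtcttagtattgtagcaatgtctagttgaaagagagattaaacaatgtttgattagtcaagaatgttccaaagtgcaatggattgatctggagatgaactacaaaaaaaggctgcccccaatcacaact
The windows of Cyp2c40 and Cyp2c69 were identical at 98.6% of 220 aligned bases, and those of Cyp2c40 and Cyp2c67 at 92.9% of 170. The capital letters began at position -45 from the RefSeq start in Cyp2c40, at -75 in Cyp2c69 and at -125 in Cyp2c67. The 30 bases before that start in Cyp2c69 and the 9 in Cyp2c67 lie inside the annotated gene and are not printed. In the printed letters of Cyp2c40 and Cyp2c69 the capitals are equally far from the end, so -45 and -75 differ by where RefSeq places the start. They were found in the 250 upstream bases of 3 of the 9 members with a RefSeq window, Cyp2c40, Cyp2c69 and Cyp2c70, and in 1.2% of 32851 windows of the same length from all genes. A match is a description of letters only. Cyp2c67 holds the same letters as Cyp2c40 and Cyp2c69. So does Cyp2c68, where they began at -77 and whose window was identical to that of Cyp2c40 at 95.4% of 217 aligned bases. The part of these letters in the values described next was not tested. The STAT motif TTCNNNGAA, on both strands, was in none of the 9 windows and in 7.02% of all windows. Also searched were TGTTTAC (2 of the 9 windows), AGGTCA (3) and GTTAAT (2), found in 3.17%, 14.0% and 6.43% of all windows. GTTAAT was in the windows of Cyp2c40, Cyp2c68 and Cyp2c69. It was not in that of Cyp2c67, which begins nearer to the capital letters, so the matching stretch may lie outside it. Cyp2c54 is named only.

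Values are the signal that the authors deposited for each gene, on the scale of TPM, a share of the library adjusted for transcript length, so levels can be set side by side between genes. Summed over the 10 members, the level was between 2180 and 4164, which was 0.21% to 0.415% of all RNA in the table. Cyp2c29 held 20.1% to 33.2% of this sum, Cyp2c70 12.8% to 26.7% and Cyp2c39 13.9% to 20.8%. The share of Cyp2c69 ranged from 0.328% to 15.4%, that of Cyp2c50 from 2.92% to 14.4% and that of Cyp2c40 from 0.588% to 10.3%. Cyp2c55 held less than 0.1% in every library. The summed level was 3319 ± 503 in chow controls, 3402 ± 665 in chow mutants, 2437 ± 250 in HFD controls and 3063 ± 495 in HFD mutants (SD, n = 4).

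**Figure D1:**
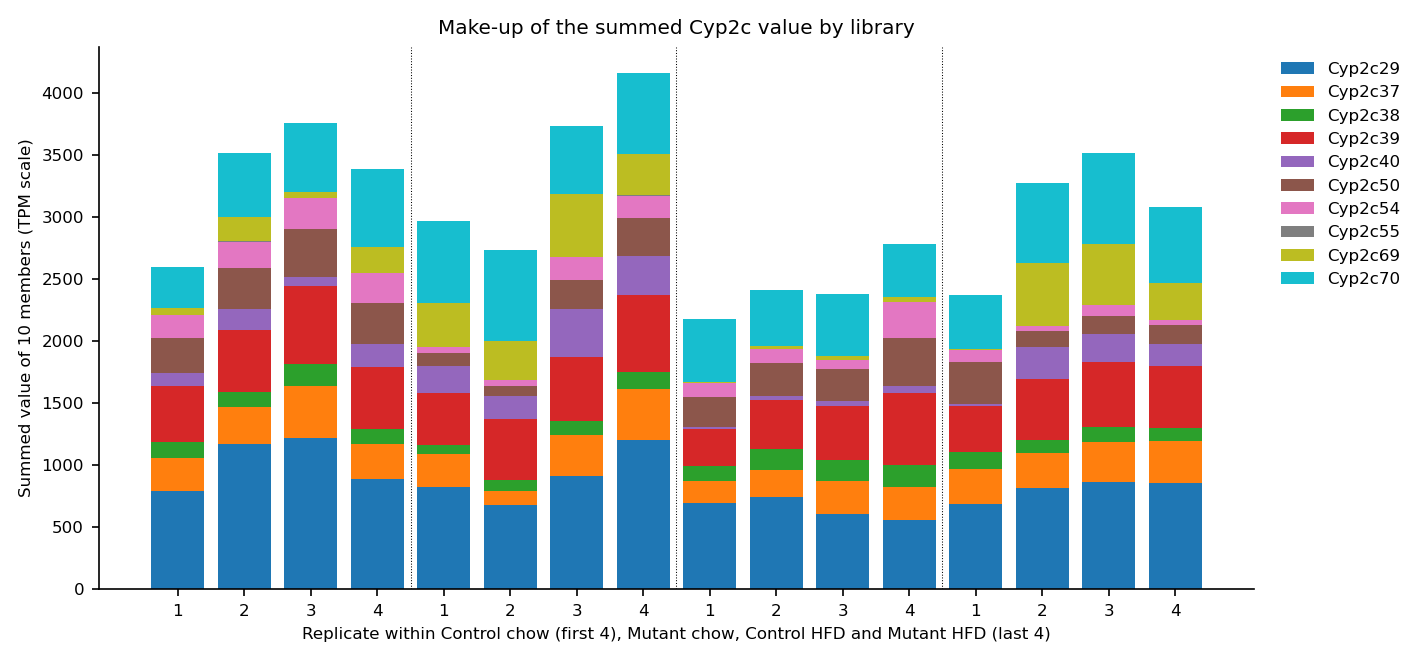
Summed value of the 10 Cyp2c members (vertical axis, TPM scale) in each of the 16 libraries, stacked by member, with the 4 groups of 4 libraries separated by dotted lines. The sum ranged from 2180 to 4164, and the bands of Cyp2c40 and Cyp2c69 are wide in the chow mutants and in 3 of 4 HFD mutants and narrow in HFD controls.

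In chow controls the order of mean levels was Cyp2c29 (1015 ± 209), Cyp2c39 (520 ± 76.2), Cyp2c70 (511 ± 128), Cyp2c50 (333 ± 44.0), Cyp2c37 (319 ± 71.4), Cyp2c54 (222 ± 30.7), Cyp2c38 (137 ± 26.9), Cyp2c40 (132 ± 54.1), Cyp2c69 (128 ± 84.6) and Cyp2c55 (1.74 ± 0.780), each as SD over 4 libraries. The means of Cyp2c39 and Cyp2c70, of Cyp2c50 and Cyp2c37, and of Cyp2c38, Cyp2c40 and Cyp2c69 differed by less than their SD. In HFD mutants the order was different. Cyp2c69 (326.2 ± 233.5) then stood above Cyp2c37 (304 ± 31.1), Cyp2c50 (190 ± 102) and Cyp2c54 (67.1 ± 27.5), although its SD spans the means of Cyp2c37 and Cyp2c50.

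**Figure D2:**
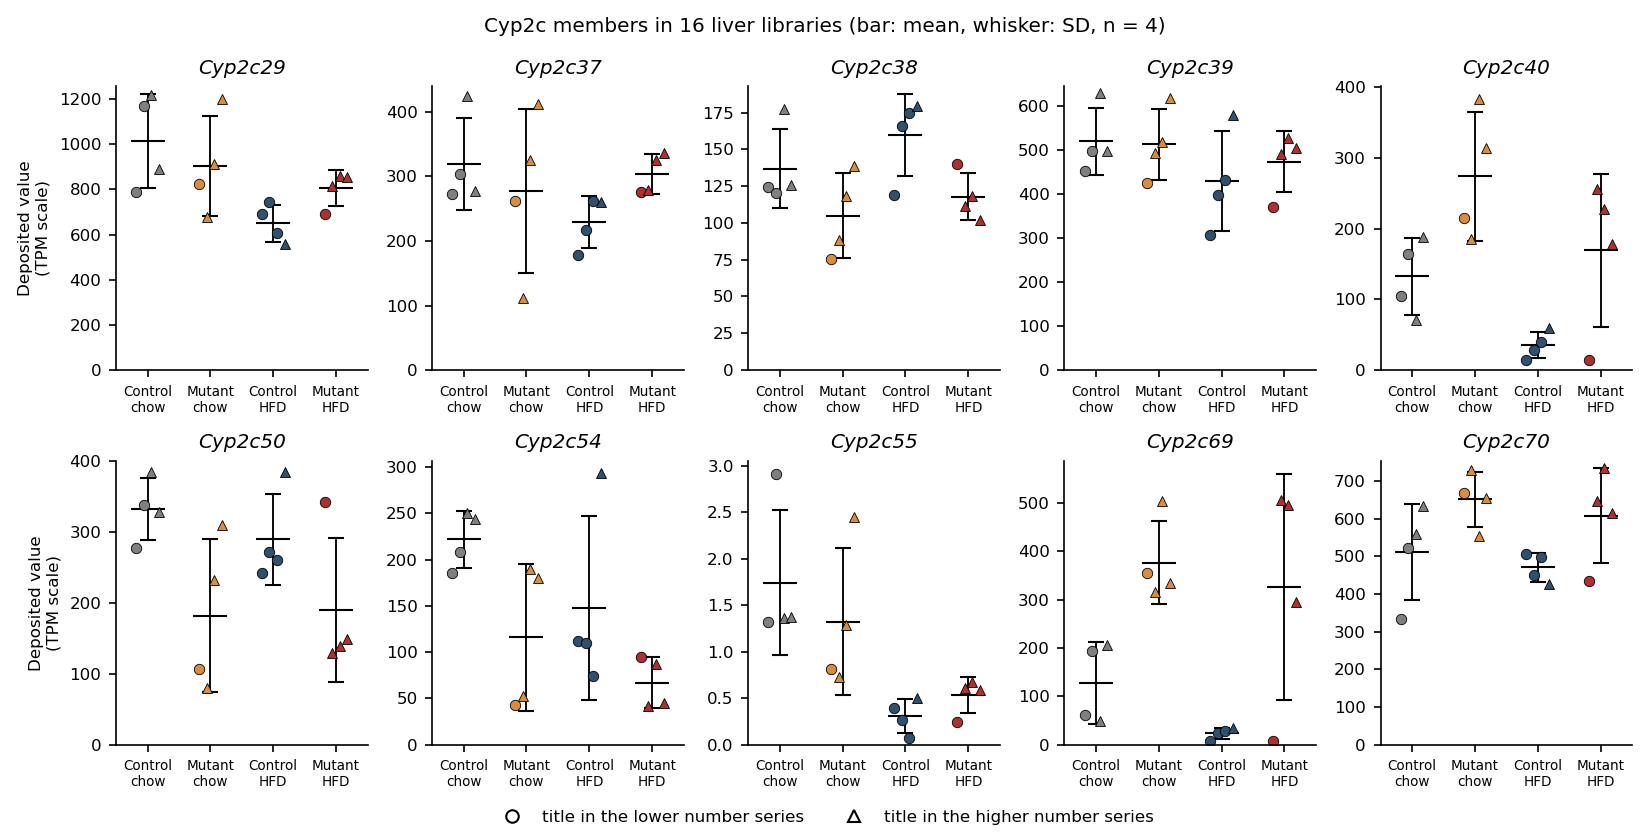
Value of each Cyp2c member (vertical axes, TPM scale, each from 0) in the 16 libraries, by group, with horizontal bars for the mean and whiskers for the SD of 4 libraries. Circles and triangles are libraries whose titles fall in the lower or the higher number series of their diet, and the single HFD mutant circle in the Cyp2c69 panel lies at 7.78 while the 3 triangles lie between 294.8 and 505.8.

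Before the comparisons, 2 features of the libraries need stating, because they touch the members' values. First, titles carry numbers that fall into a lower and a higher series within each diet, and the labels do not say what these mean. On HFD the lower series held 3 controls and 1 mutant (replicate 1), and the higher series held 3 mutants and 1 control (replicate 4). Between these series on HFD, with the group means in the same limma fit, 3197 genes, or 25.2% of the 12704 tested, were called at an adjusted p under 0.05. Without HFD control replicate 4 the number was 713, and without HFD mutant replicate 1 it was 1862. Between the chow series it was 0%, with 1478 genes at an unadjusted p under 0.05. Second, chow mutant replicates 1 and 2 had summed values of 2736 and 6026 for the 7 neutrophil markers, against 4.51 to 12.3 in chow controls and 24.8 and 101.2 in the other two chow mutants, and all 5 of these markers that passed the filter had an unadjusted p under 0.05 for genotype on chow. The mean log2(value + 1) of 20 acute-phase genes was 9.30 and 11.53 in these replicates and 7.68 to 8.12 in chow controls. In bulk tissue, fewer cells of a type and less RNA per cell cannot be told apart.

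Cyp2c40, known for hydroxylating arachidonic acid, and its close copy Cyp2c69 were the members with the highest log2 differences between mutants and controls on both diets. On chow, Cyp2c69 was 60.8, 194.5, 48.3 and 206.6 in controls (replicates 1 to 4) and 354.6, 315.1, 503.5 and 333.9 in mutants. All 4 mutants were above all 4 controls, which was so, in either direction, for 3.05% of all genes. The mean was 2.95 times that of controls, and the exact two-sided permutation p was 0.0286, the smallest that 4 against 4 libraries allow, or 0.143 after Benjamini-Hochberg adjustment over the 40 member tests. In the limma fit over all genes the log2 difference was 1.82 ± 0.991 (SE), with an adjusted p of 0.847, so it did not pass the threshold of 0.05. This SE pools the spread of all 4 groups, also that of the HFD mutants, which ranged from 7.78 to 505.8. Cyp2c40 was 105.2, 164.5, 70.9 and 189.0 in chow controls and 214.8, 185.5, 383.6 and 314.7 in chow mutants. Only the highest control and the lowest mutant overlapped. Its log2 difference was 1.09 ± 0.709 (SE), with a limma adjusted p of 0.902.

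On HFD the same genes split the mutants. Cyp2c69 was 7.84, 23.7, 27.8 and 35.5 in HFD controls and 7.78, 505.8, 496.5 and 294.8 in HFD mutants. Cyp2c40 was 14.8, 28.5, 39.3 and 59.0 in controls and 13.95, 255.7, 228.2 and 179.0 in mutants. In both genes 3 mutants were far above every control, and mutant replicate 1 was below every control. Over all 4 mutants the log2 difference was 2.87 ± 0.991 (SE) for Cyp2c69 (limma unadjusted p = 0.0109, adjusted p = 0.54) and 1.78 ± 0.709 for Cyp2c40 (unadjusted p = 0.0236, adjusted p = 0.56). Without mutant replicate 1 the differences were 4.27 and 2.75, and both genes passed the adjusted threshold in a fit that called 141 genes, or 1.11%.

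Mutant replicate 1 was also the single mutant of the lower title series. Within that series Cyp2c69 was 7.78 in the mutant and 7.84 to 27.8 in the 3 controls, and within the higher series it was 294.8 to 505.8 in the 3 mutants and 35.5 in the single control. The genotypes thus stood apart within the higher series, which held 1 control, and not within the lower series, which held 1 mutant. With the series as a term in the fit, the HFD genotype difference was 1.23 for Cyp2c69 and 0.52 for Cyp2c40, and the series difference was 3.28 ± 0.844 (limma adjusted p = 0.0134) and 2.53 ± 0.545 (adjusted p = 0.00531). Cyp2c39 was the third member called between the HFD series, 0.54 ± 0.139 higher in the higher series (adjusted p = 0.0137). These 3 of 10 members stand beside 25.2% of all genes, so the share is near the background. Without mutant replicate 1 none of the 10 passed between the series, beside 14.7% of all genes. The cause of the series difference was not tested.

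**Figure D3:**
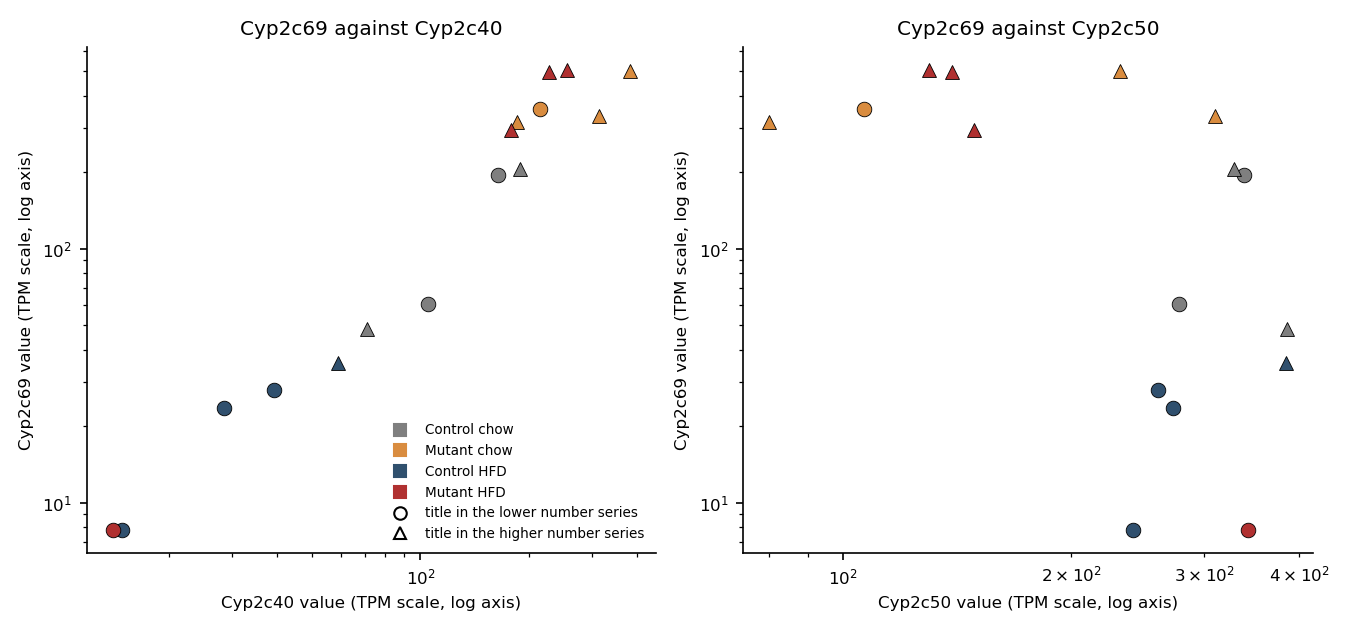
Left, Cyp2c69 against Cyp2c40, and right, Cyp2c69 against Cyp2c50, each point 1 library (TPM scale, log axes), coloured by group and shaped by title series. Cyp2c69 and Cyp2c40 lie along 1 line from 7.78 to 505.8, whereas the 3 HFD mutants with the highest Cyp2c69 have Cyp2c50 values of 130.1 to 149.0.

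Over all 16 libraries Pearson's r of log2(value + 1) between Cyp2c40 and Cyp2c69 was 0.979, as a description, since the groups are pooled and the copies share sequence. Cyp2c69 moved over a wider range. The ratio of Cyp2c69 to Cyp2c40 was 0.667 ± 0.13 in HFD controls, 0.884 ± 0.299 in chow controls, 1.43 ± 0.3 in chow mutants and 1.59 ± 0.722 in HFD mutants (SD, n = 4). Of the other close copies, Cyp2c67 had a lower mean in mutants. It was 81.3 ± 14.3 in chow controls and 42.8 ± 21.1 in chow mutants, and 117 ± 15.6 in HFD controls and 62.2 ± 25.3 in HFD mutants (SD, n = 4). Its log2 difference between mutants and controls was -1.03 ± 0.315 on chow and -0.98 ± 0.315 on HFD (limma adjusted p = 0.648 and 0.527). Cyp2c68 was 146 ± 13.1 in controls and 139 ± 20.2 in mutants on chow. On HFD it was 93.7, 96.1, 130.5 and 153.9 in controls and 89.9, 161.1, 165.7 and 141.4 in mutants. As in Cyp2c40 and Cyp2c69, HFD mutant replicate 1 was below every control, and Cyp2c68 was called higher in the higher HFD title series (0.66 ± 0.143, limma adjusted p = 0.00531).

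Cyp2c40 and Cyp2c69 summed gave a log2 genotype difference of 1.46 on chow and 2.38 on HFD (limma adjusted p = 0.862 and 0.545), between the values of the single genes. With Cyp2c67 and Cyp2c68 added to the sum it was 0.80 on chow and 1.04 on HFD (adjusted p = 0.833 and 0.551). How far the division of shared reads sets the opposite values of Cyp2c67 and Cyp2c69 was not tested.

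Cyp2c50 and Cyp2c54, which oxidise arachidonic and linoleic acid, were lower on average in mutants. On chow, Cyp2c50 was 278.1, 338.4, 385.5 and 328.6 in controls and 106.5, 79.9, 231.99 and 310.3 in mutants. Cyp2c54 was 185.4, 208.2, 250.4 and 244.0 in controls and 42.9, 52.3, 189.5 and 179.7 in mutants. In both genes replicates 1 and 2 were the lowest mutants, and 1 of the other mutants overlapped the controls. The log2 difference was -1.06 ± 0.375 (SE) for Cyp2c50 and -1.22 ± 0.488 for Cyp2c54, with limma unadjusted p = 0.0122 and 0.0237 and adjusted p = 0.763 and 0.804. The exact permutation p was 0.0571 for each.

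The same replicates 1 and 2 were those with abundant neutrophil and acute-phase RNA. With both left out, the chow differences were -0.30 for Cyp2c50 and -0.26 for Cyp2c54, in a fit chosen after the marker values were seen. The differences of Cyp2c40 and Cyp2c69 without them were 1.49 and 1.96, so these were as large as with all libraries. The part of inflammation in the Cyp2c50 and Cyp2c54 values was not tested.

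On HFD, Cyp2c50 was 241.8, 272.7, 260.8 and 384.7 in controls and 342.7, 130.1, 139.2 and 149.0 in mutants. In all, 3 of 4 mutants were below all controls, and mutant replicate 1 was inside the control range only through control replicate 4. In the lower title series the single mutant, at 342.7, was above the 3 controls of 241.8 to 272.7. In the higher series the 3 mutants of 130.1 to 149.0 stood beside a single control at 384.7. Cyp2c54 was 112.5, 109.9, 73.8 and 294.1 in controls and 94.4, 41.6, 87.3 and 45.4 in mutants. In the lower series its mutant value of 94.4 was inside the control range of 73.8 to 112.5. With the series as a term in the fit, the genotype difference was -0.53 for Cyp2c50 and -1.22 for Cyp2c54. Without that term the log2 difference was -0.71 ± 0.375 (SE) for Cyp2c50 and -1.02 ± 0.488 for Cyp2c54, with limma adjusted p = 0.588 and 0.577. Without control replicate 4, which held the highest Cyp2c54 value, the latter was -0.62. HFD mutants had summed neutrophil markers of 13.9 to 143.3, against 7.74 to 25.5 in HFD controls, and acute-phase values inside the control range or below it.

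Cyp2c37, the third copy of this subgroup, also an arachidonic acid hydroxylase, did not follow Cyp2c50. It was 178.4, 217.7, 261.9 and 260.1 in HFD controls and 276.5, 279.0, 325.8 and 336.2 in HFD mutants. All 4 HFD mutants were above all 4 controls, as groups did not overlap in 2.69% of all genes, by a log2 difference of 0.42 ± 0.297 (SE, limma adjusted p = 0.655, exact permutation p = 0.0286). On chow it was 272.2, 303.4, 424.6 and 277.6 in controls and 262.5, 111.2, 325.2 and 411.9 in mutants, which overlapped, and the low value of 111.2 was in replicate 2. Summed over Cyp2c37, Cyp2c50 and Cyp2c54, the genotype difference was -0.76 on chow and -0.23 on HFD (limma adjusted p = 0.804 and 0.818). In the HFD sum the higher Cyp2c37 value thus offset part of the lower values of its copies. Of the 31-base words of Cyp2c37, 34.2% also occurred in Cyp2c50 and 28.2% in Cyp2c54. How far the division of shared reads sets these opposite values was not tested.

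**Figure D4:**
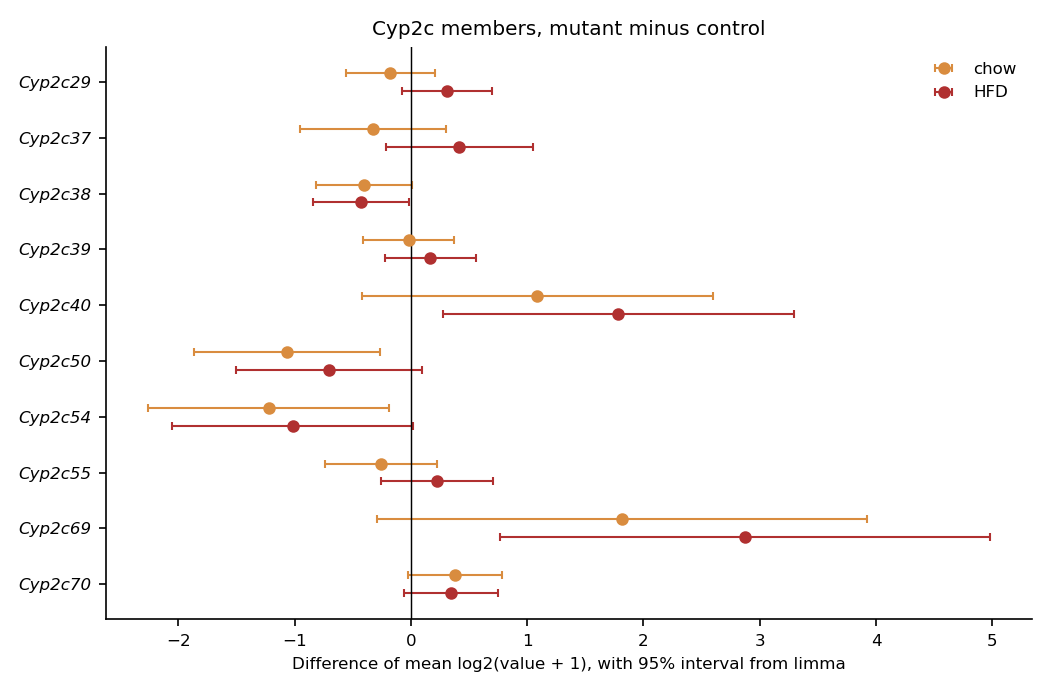
Difference of mean log2(value + 1) between mutants and controls for each Cyp2c member (horizontal axis), on chow and on HFD, with 95% intervals from limma. Cyp2c69 has the highest estimates, 1.82 on chow and 2.87 on HFD, Cyp2c54 the lowest, -1.22 and -1.02, and no member passed the adjusted threshold.

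Cyp2c29, an epoxygenase and a well known CAR target, was 787.9, 1168, 1217 and 889.3 in chow controls and 823.4, 677.1, 913.8 and 1200 in chow mutants. On HFD it was 691.6, 743.7, 606.1 and 559.9 in controls and 690.1, 815.1, 861.1 and 857.3 in mutants. The groups overlapped in both diets, and the log2 difference was -0.18 ± 0.181 (SE) on chow and 0.31 ± 0.181 on HFD (limma adjusted p = 0.606 on HFD). Cyp2c38, also an epoxygenase, was 137 ± 26.9 in chow controls and 105 ± 28.7 in chow mutants, and 160 ± 27.7 and 118 ± 16.1 on HFD (SD, n = 4). Its log2 difference was -0.40 ± 0.193 (SE) on chow and -0.43 ± 0.193 on HFD, with limma adjusted p = 0.832 and 0.575. Cyp2c39, which can hydroxylate retinoic acid, differed by -0.02 on chow, with a 95% interval of -0.41 to 0.37, and by 0.17 on HFD, with an interval of -0.23 to 0.56.

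Cyp2c70 makes muricholic acids, the hydrophilic bile acids typical of mice. It was 332.3, 522.1, 557.9 and 632.8 in chow controls and 667.0, 730.2, 554.1 and 654.3 in chow mutants, and 507.1, 451.2, 499.2 and 427.2 in HFD controls and 433.9, 646.7, 733.6 and 615.9 in HFD mutants. In each diet 3 of 4 mutants were above all controls. On HFD these were the 3 mutants of the higher title series, which held a single control at 427.2. In the lower series the mutant, at 433.9, was below the 3 controls of 451.2 to 507.1. With the series as a term in the fit, the HFD difference was 0.24. Without that term the log2 difference was 0.38 ± 0.19 (SE) on chow and 0.34 ± 0.19 on HFD, with limma adjusted p = 0.835 and 0.595. As its transcripts shared no 31-base word with another gene, its values do not rest on the division of reads among copies.

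None of the 10 members passed the adjusted threshold for genotype on chow, where 0.0236% of all genes did, or on HFD, where 0.0157% did. At an unadjusted p under 0.05 there were 2 of 10 on chow (Cyp2c50 and Cyp2c54) and 3 of 10 on HFD (Cyp2c38, Cyp2c40 and Cyp2c69), beside 6.08% and 8.6% of all genes. The median log2 difference of the members was -0.22 on chow and 0.27 on HFD, beside 0.02 over all genes in both. A contrast of the genotypes averaged over both diets, added after the values were seen, called 0.063% of all genes and none of the members. In it 6 of 10 members had an unadjusted p under 0.05, beside 8.98% of genes: Cyp2c69 (2.34), Cyp2c40 (1.44) and Cyp2c70 (0.36) were higher in mutants, and Cyp2c54 (-1.12), Cyp2c50 (-0.89) and Cyp2c38 (-0.41) were lower, and the smallest adjusted p by limma was 0.349.

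The diet comparison sets HFD beside chow within a genotype. Each title series lies within 1 diet, so differences of diet and of series cannot be told apart here. The lower HFD series held 3 of the 4 HFD controls. Cyp2c39, Cyp2c40 and Cyp2c69 were called lower in that series than in the higher one, beside 25.2% of all genes called. In controls 9 of 10 members were lower on HFD on average, with a median log2 difference of -0.55 beside -0.01 over all genes, and none passed the adjusted threshold, as with 0% of all genes, of which 1641 had an unadjusted p under 0.05. Cyp2c55, which hydroxylates arachidonic acid and is better known from the intestine, had the smallest p of the members. It was 1.32, 2.91, 1.36 and 1.38 in chow controls and 0.397, 0.267, 0.073 and 0.502 in HFD controls. All HFD controls were below all chow controls, by a log2 difference of -1.04 ± 0.228 (SE, limma adjusted p = 0.158). Every HFD library was below 1 for this gene, so it passed the filter on low values only through chow libraries. Lower HFD values were thus favoured by the filter, and its diet differences are a description only. Without HFD control replicate 4 the gene passed the threshold, in a fit that called 925 genes, or 7.28%. Because these values are near the pseudocount of 1, the size depends on it, and with a pseudocount of 0.1 the difference was -2.23.

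Cyp2c29 was lower, with a log2 difference of -0.63 ± 0.181 (SE, limma adjusted p = 0.215), and its HFD controls of 559.9 to 743.7 were below the chow controls of 787.9 to 1217. Cyp2c40 and Cyp2c69 were lower, with differences of -1.93 ± 0.709 and -2.27 ± 0.991 (adjusted p = 0.292 and 0.349). Their HFD control ranges of 14.8 to 59.0 and 7.84 to 35.5 lay below the chow control ranges of 70.9 to 189.0 and 48.3 to 206.6. Cyp2c37 was 178.4 to 261.9 on HFD and 272.2 to 424.6 on chow. In these 5 members the diets did not overlap in controls, and the same was so for 6.36% of all genes. Cyp2c55, counted among them, had passed the filter only through chow libraries. With libraries rescaled to a total of 1000000, the median of all genes in this contrast shifted by -0.16, and Cyp2c29 then differed by -0.80.

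In mutants only Cyp2c55 had groups that did not overlap, with 0.817, 0.734, 1.29 and 2.45 on chow and 0.244, 0.605, 0.675 and 0.593 on HFD, beside 3.53% of all genes. Its log2 difference was -0.56 ± 0.228 (SE, limma adjusted p = 0.687), again in a gene that passed the filter only through chow libraries. None of the members and 0% of all genes passed the adjusted threshold, with 872 genes at an unadjusted p under 0.05. Cyp2c29 differed by -0.14, with a 95% interval of -0.52 to 0.25, and Cyp2c69 by -1.21, with an interval of -3.32 to 0.89. Without mutant HFD replicate 1 the Cyp2c69 difference was 0.18.

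**Figure D5:**
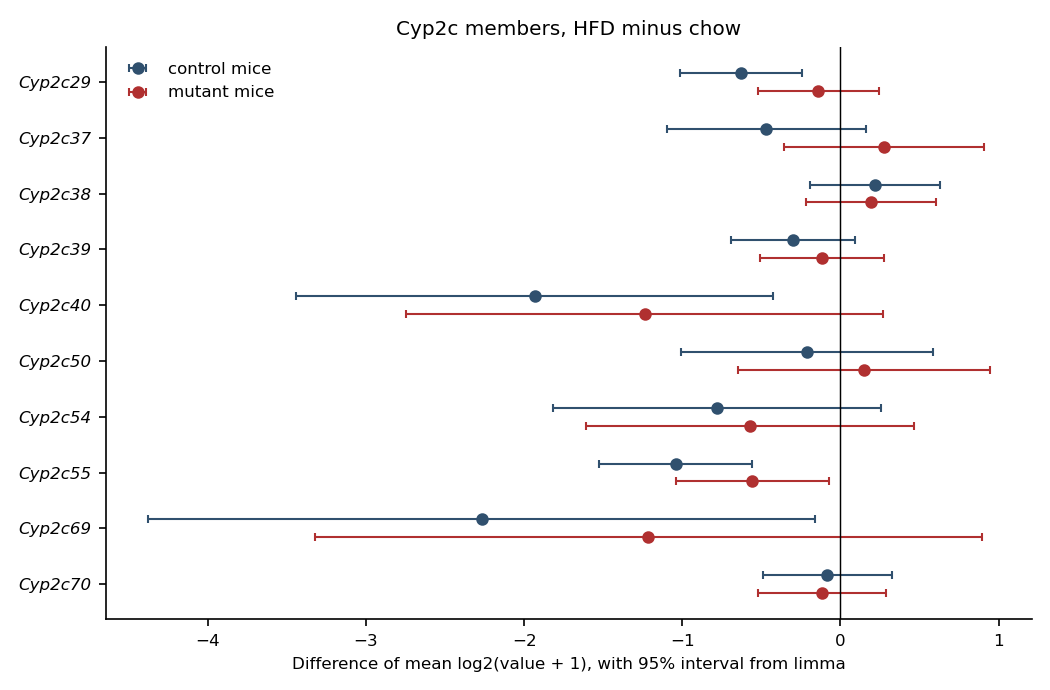
Difference of mean log2(value + 1) between HFD and chow for each Cyp2c member (horizontal axis), in control and in mutant mice, with 95% intervals from limma. In controls Cyp2c69 (-2.27), Cyp2c40 (-1.93), Cyp2c55 (-1.04) and Cyp2c29 (-0.63) have intervals below 0, and in mutants only Cyp2c55 (-0.56) has. Cyp2c55 passed the filter on low values only through chow libraries.

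Whether the genotypes differed in their response to diet was tested as an interaction. It called 0% of all genes, with 535 at an unadjusted p under 0.05, and none of the members had an unadjusted p under 0.05. The lowest were for Cyp2c29 (0.49, unadjusted p = 0.0754) and Cyp2c37 (0.74, unadjusted p = 0.0963), both with limma adjusted p = 0.895. The interval for Cyp2c69, -1.93 to 4.04 on the log2 scale was the widest of the 10.

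The wider pathway was described by lists of genes, and no gene of these lists passed the adjusted threshold in any of the 4 comparisons of genotype or diet or in their interaction. At most 0.0236% of all genes passed it in any of these. Of the 9 genes of electron transfer and haem supply, none had an unadjusted p under 0.05 for genotype in either diet. Of 10 tested genes of epoxide hydrolysis and other fatty acid oxygenases, 4 did on chow, each with a lower mean in mutants: the fatty acid hydroxylases Cyp4a14 (-3.40) and Cyp4a10 (-2.03), the soluble epoxide hydrolase Ephx2 (-0.46), and Cyp4f15. The summed value of this list was 978.2 and 848.9 in chow mutant replicates 1 and 2, the libraries with abundant neutrophil RNA, and 1943 and 1971 in the other two, inside the chow control range of 1672 to 2519. Of 19 CAR and PXR targets, 5 did on chow and 4 on HFD. For these counts the share of all genes was 6.08% on chow and 8.6% on HFD. Their summed value was 3090 and 2960 in chow mutant replicates 1 and 2, 4691 and 5413 in the other two, and 4554 to 7188 in chow controls. The bile salt and drug hydroxylase Cyp3a11 differed by -2.47 on chow and -2.09 on HFD (limma adjusted p = 0.67 and 0.546). Among 25 regulators, 1 had an unadjusted limma p under 0.05 on chow and 3 on HFD, beside the same 6.08% and 8.6% of all genes. The forkhead factor Foxa1 differed by -0.56 on chow (limma adjusted p = 0.548). On HFD the repressor Nr0b2 differed by -1.65 and the growth hormone receptor Ghr by 0.55 (limma adjusted p = 0.54 and 0.527).

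Of 14 bile acid genes, 2 had an unadjusted p under 0.05 on HFD, led by Cyp7a1, the rate-limiting enzyme of bile acid synthesis, with a log2 difference of 2.32 (limma adjusted p = 0.524). Of 13 pericentral hepatocyte markers, 8 did so on HFD, with a median difference of 0.39, among them glutamine synthetase, Glul (0.66, adjusted p = 0.527), and of 12 periportal markers 2 did, with a median of -0.32. The share of all genes was 8.6%. Between the HFD title series, which divide the genotypes unevenly, 7 pericentral and 4 periportal markers had an unadjusted limma p under 0.05. Their medians there were 0.49 and -0.46, and the share of all genes was 37.8%. Between the HFD title series, where 25.2% of all genes were called, 6 of 25 regulators, 6 of 14 bile acid genes, 3 of 19 CAR and PXR targets, 2 of 13 pericentral markers and 3 of 12 periportal markers were called. In the same comparison 2 of 7 sinusoidal endothelial markers and 1 of 8 stellate cell markers were called higher, and 2 of 5 tested red blood cell markers and 1 of 20 acute-phase genes lower. Their part in the members' values was not tested. All 8 Kupffer cell markers, of the resident macrophages, had a higher mean in chow mutants, with a median log2 difference of 0.65, and none was called. Their summed value was 541.4 and 657.4 in chow mutant replicates 1 and 2, 223.8 and 318.8 in the other two, and 127.3 to 445.5 in chow controls. Markers of other cell types (lymphocyte, stellate, endothelial, bile duct, adipocyte, pancreas and red blood cell) had no called gene for genotype or diet. At most 0.0236% of all genes were called in these 4 comparisons, so the lack of a call does not show that the cell types were equal. Only 1 adipocyte and 2 pancreas markers were tested.

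Outside the family, the gene whose log2 values were most like those of a member over the 16 libraries was found for each, as a description with groups pooled. Cyp2c69 was most like A1bg (Pearson's r = 0.973, Spearman's rho = 0.868) and Cyp2c40 most like Htra4 (0.972 and 0.959). Cyp2c50 was most like Mup1, a major urinary protein (0.946 and 0.803), and Cyp2c55 most like the methyl transferase Bhmt (0.903 and 0.862). Leaving out the 2 libraries farthest from the median of the member changed r to 0.957, 0.972, 0.908 and 0.827. For Cyp2c37, whose closest gene was Slc47a1 (r = 0.866), it was 0.555, so that likeness rested on 2 libraries. Within the family, Cyp2c50 and Cyp2c54 had r = 0.838 and Cyp2c50 and Cyp2c69 had r = -0.56.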

How the data were processed

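Liver RNA of 16 female mice (4 groups of 4) was sequenced as bulk libraries. Per the study's methods, the authors quantified reads with kallisto on mm10 and used sleuth. Tool versions and the annotation release are not given in the sources used here. For each gene the authors deposited a signal, TPM adjusted by size factors, with column totals of 905897 to 1119703, so sequencing depth is unknown and no counting interval is given. Groups came from genotype and diet labels, and nothing in the labels pairs libraries.

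Values were tested as log2(value + 1) with limma 3.58.1 (R 4.3.3, trend), over the 12704 genes that reached 1 in 4 libraries, with 4 group means, and p-values were Benjamini-Hochberg adjusted over all genes at a threshold of 0.05. A fold change on this scale understates the change of low genes. Group means are on the deposited scale. Exact two-sided permutation tests used all 70 arrangements of 4 against 4 libraries (scipy 1.17.1). Tests were tried on simulated data. In the main limma fit each gene has 1 spread, pooled over all 4 groups. Libraries outside a comparison thus also set its SE, interval and p. The exact permutation p uses only the 2 groups compared. Sequences were handled with Biopython 1.88, genes placed by GENCODE M21. Named genes outside the family were the 3 with the smallest p of each list or the closest in correlation, apart from those said to be chosen after values were seen. The members and lists were chosen with earlier results of these data known. Alternatives were another pseudocount, filter and scaling, library weights, a title series term, leaving out each library, and summed copies.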

Additional observations from a re-analysis of the deposited data

Results flagged for a closer look

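Of 40 groups of 4 libraries (10 members in 4 groups), 3 held a library far from the others by Dixon's 95% criterion, which chance meets in about 1 of 20 groups. Cyp2c38 was 177.2 in chow control replicate 3 and 120.6 to 125.9 in the other chow controls. Cyp2c50 was 342.7 in HFD mutant replicate 1 and 130.1 to 149.0 in the other HFD mutants, and the same library held the lowest Cyp2c69 value of the 16, 7.78. Cyp2c55 was 2.91 in chow control replicate 2 and 1.32 to 1.38 in the other chow controls.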

How the results depend on the processing

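In the alternatives run, no member was called for genotype or diet except as follows. The title series term was not run for the diet comparisons, nor a fit on only the groups compared for the interaction or the averaged genotypes. Library weights called 5 members for genotype on HFD (Cyp2c38, Cyp2c40, Cyp2c50, Cyp2c69 and Cyp2c70), beside 30.9% of all genes, 4 for diet in controls (Cyp2c29, Cyp2c40, Cyp2c55 and Cyp2c69), beside 17.8%, and 3 for genotype averaged over diets (Cyp2c40, Cyp2c50 and Cyp2c69), beside 8.03%. Leaving out 1 library changed some counts of called members. Without HFD mutant replicate 1 there were 2 for genotype on HFD, beside 1.11% of all genes, and 2 averaged over diets, beside 0.937%. Between the HFD title series there were then 0, beside 14.7%. Without HFD control replicate 4 there was 1 for diet in controls (Cyp2c55), beside 7.28%, and 2 between the series, beside 5.61%. Leaving out any other library did not change these counts. The cause was not tested.

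For genotype on chow, Cyp2c39 was 0.023 with weights, and without chow mutant replicates 1 and 2 the values were 0.068 (Cyp2c29), 0.22 (Cyp2c37), 0.13 (Cyp2c39) and 0.074 (Cyp2c55). On HFD Cyp2c39 was -0.10 with the title series as a term. For diet in mutants, weights gave 0.00 (Cyp2c37), -0.014 (Cyp2c38), -0.49 (Cyp2c50) and 0.059 (Cyp2c70). For the interaction, rescaling to a total of 1000000 gave 0.14 (Cyp2c38) and 0.13 (Cyp2c70), weights gave -0.16 (Cyp2c50), -0.002 (Cyp2c54) and 0.15 (Cyp2c70), and the series term gave 0.10 (Cyp2c38), -0.012 (Cyp2c39), -0.55 (Cyp2c40) and -0.60 (Cyp2c69). Between the HFD series Cyp2c29 was -0.045 with median-of-ratios scaling and Cyp2c38 0.10 after rescaling. Between the chow series Cyp2c40 was -0.21 with weights, and summed with Cyp2c69 it was -0.004.

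Without each library in turn, genotype on chow ranged from -0.11 to 0.076 (Cyp2c39) and -0.57 to 0.061 (Cyp2c37). Diet in controls was -0.28 to 0.034 (Cyp2c70). Diet in mutants was -0.18 to 0.47 (Cyp2c50), -1.77 to 0.18 (Cyp2c69), -0.22 to 0.034 (Cyp2c70), -0.11 to 0.52 (Cyp2c37) and -0.27 to 0.007 (Cyp2c29). The interaction was -0.15 to 0.16 (Cyp2c70), -0.17 to 0.12 (Cyp2c38) and -0.16 to 0.61 (Cyp2c54). Between the HFD series it was -0.28 to 0.29 (Cyp2c29), -0.34 to 0.25 (Cyp2c38), -1.29 to 0.57 (Cyp2c50), -0.18 to 0.61 (Cyp2c70) and -0.77 to 1.59 (Cyp2c54). Between the chow series it was -0.006 to 0.26 (Cyp2c29), -0.21 to 0.45 (Cyp2c40), -0.35 to 0.23 (Cyp2c55), -0.50 to 0.48 (Cyp2c69) and -0.072 to 0.35 (Cyp2c37). Rescaling moved the median of all genes by -0.16 for diet in controls, 0.15 for the interaction and 0.14 between the HFD series. Of all alternatives, 1324 kept direction and side of the threshold, 70 turned direction, 17 newly passed the threshold, 4 no longer passed it and 7 counts moved. Depth is unknown, so its limit on the low member Cyp2c55 could not be given.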

Other observations

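Cyp2c23, a Cyp2c gene outside the cluster, at 44005022 to 44029208 on chromosome 19, was 244 in chow controls, 227 in chow mutants, 278 in HFD controls and 202 in HFD mutants, as group means.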
